A study of Mus musculus with 8 samples.

Results

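The genes described here are 7 matrix metalloproteinases (MMPs), Mmp2, Mmp3, Mmp9, Mmp11, Mmp13, Mmp14 and Mmp19, and 3 tissue inhibitors of metalloproteinases (TIMPs), Timp1, Timp2 and Timp3. They were taken by symbol from the table of raw counts, where all 10 were found among 26667 genes. RNA was sequenced from paraffin sections of undifferentiated pleomorphic sarcoma (UPS), a soft tissue sarcoma, in 4 KP tumours (KP 5 to KP 8) and 4 KPH2 tumours (KPH2 1 to KPH2 4), with 1 library per tumour. KP mice carried Trp53 fl/fl among their engineered alleles. KPH2 mice carried the same alleles and also Epas1 fl/fl, in the gene of the hypoxia-inducible factor HIF-2α, and the comparison of the groups addresses what the loss of HIF-2α changes in these tumours. Both groups were on a mixed 129/C57BL/6 background, and male and female mice of 8 weeks or older received adenovirus expressing Cre (Ad-Cre) in the muscle of the right hind limb. Tumours were taken at 7 weeks or at a size limit, and which of these applied to each tumour was not given in the sources used here. Cre came from a virus and not from a cell type promoter, and which cells of a section had recombined was not measured here. In the study 1 knockout tumour was set aside as an outlier for technical reasons, and KPH2 1 is the tumour missing from the smaller deposited table. The comparison was therefore made over 7 tumours, with KPH2 1 shown apart and added in a second fit over 8.

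MMPs are zinc-dependent proteases that cut collagens, laminins, proteoglycans and other proteins of the extracellular matrix, and most are secreted or displayed at the cell surface as inactive proenzymes that must be cleaved to become active. TIMPs block the active site of these enzymes, and TIMP-2 also takes part in the activation of pro-MMP-2 by the membrane enzyme MMP-14. In solid tumours and in injured muscle both families are made by tumour cells, fibroblasts, macrophages and endothelial cells, and mRNA levels do not measure active protease.

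Total counts per tumour ran from 6463221 to 13155510. Levels are given as counts per 1000000 of the library size after TMM scaling (CPM), where TMM adjusts libraries to a common composition, and differences as log2 fold changes of KPH2 against KP tumours. The level of Epas1, the deleted gene, was 59.1, 83.0, 86.7 and 83.9 CPM for KP 5 to KP 8. KPH2 2 to KPH2 4 held 53.3, 37.7 and 42.4 CPM, and KPH2 1 held 32.6 CPM. Every KPH2 tumour lay below every KP tumour. Its log2 fold change was −0.81 (standard error 0.194), and the adjusted p was 0.0742 by the quasi-likelihood test of edgeR, adjusted by Benjamini-Hochberg over 14867 genes and used throughout. Over 8 tumours the edgeR adjusted p of Epas1 was 0.117. In the study PCR found the Epas1 allele efficiently recombined in KPH2 tumours, which counts over the whole gene do not measure.

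Of the 10 genes, 2 were called lower in KPH2 tumours over 7 tumours, Mmp2 and Mmp19, and 0 were called higher, at an adjusted p under 0.05. Among all genes tested 1.96% were called, and 0.72% were called lower. At an unadjusted p under 0.05, 4 of the 10 genes were lower in KPH2 tumours (Mmp2, Mmp3, Mmp11 and Mmp19) against 9.26% of all genes, and 0 were higher, against 8.5%. The 10 log2 fold changes had a median of −0.57, with 9 below 0, where the median of all genes was −0.02. With KPH2 1 included edgeR called 0 of the 10, and 0.00675% of all genes, while the same 4 genes were lower at an unadjusted p under 0.05, against 8.02% of all genes. DESeq2 called 3 of the 10 over 7 tumours and over 8 (Mmp2, Mmp3 and Mmp19), where it called 7.2% and 4.06% of all genes it tested. The values of every KPH2 tumour of the 7-tumour fit lay below those of every KP tumour for 3 of the 10 genes (Mmp2, Mmp3 and Mmp19), against 8.15% of all genes. With KPH2 1 included that held for 2 of the 10 (Mmp3 and Mmp19), against 4.4%. In a bulk section, fewer cells of a type and less RNA per cell cannot be told apart.

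**Figure D1:**
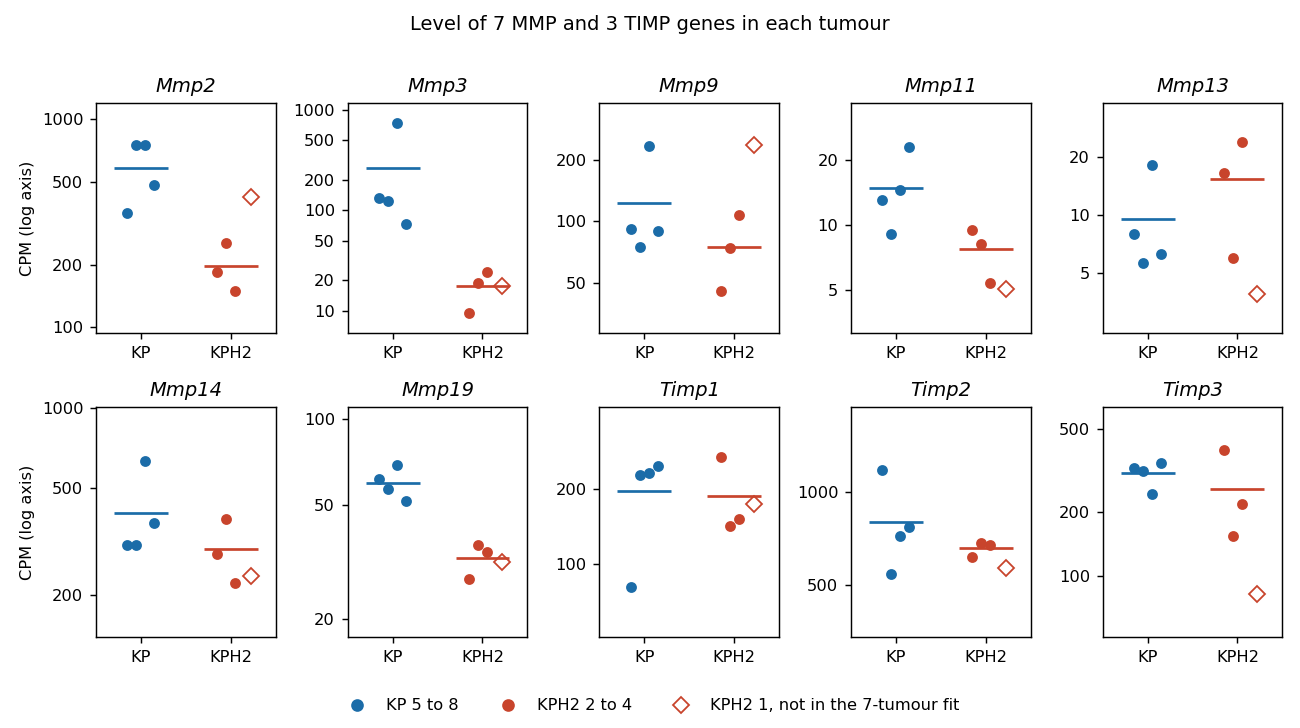
Level of each of the 10 genes in each tumour, in CPM on a log axis that differs between panels. Filled points are KP 5 to KP 8 and KPH2 2 to KPH2 4, horizontal lines are the means of those 4 and 3 tumours, and open diamonds are KPH2 1. Mmp3 and Mmp19 show no overlap between KP and any KPH2 tumour, KPH2 1 lies within the KP range of Mmp2 at 425 CPM, and the 3 TIMP genes overlap.

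Mmp2 encodes gelatinase A, a secreted enzyme that cuts denatured collagen and the collagen of basement membranes. The gene lies on chromosome 8 of GRCm38 from 92827290 to 92853421 (Entrez Gene 17390). KP 5 to KP 8 held 353, 751, 749.8 and 486 CPM, and KPH2 2 to KPH2 4 held 184, 255 and 149.9 CPM. KPH2 1 held 425 CPM, within the KP range and above the other KPH2 tumours. KP tumours averaged 585 ± 199 CPM (SD, n = 4), and KPH2 tumours averaged 196 ± 53.5 CPM (SD, n = 3), 2.98-fold lower. The fitted log2 fold change was −1.58 (standard error 0.317, 95% interval −2.30 to −0.85, edgeR adjusted p = 0.0491). Adding KPH2 1 gave −1.21 (standard error 0.368, edgeR adjusted p = 0.215), where edgeR called 1 of 14805 genes, and DESeq2 gave an adjusted p of 0.0361 over the same 8 tumours. Over 7 tumours the edgeR call was lost when any 1 of 6 tumours was left out. Without KP 6, KP 7, KP 8, KPH2 2, KPH2 3 or KPH2 4 the adjusted p was 0.105, 0.0995, 0.0775, 0.163, 0.0679 and 0.139, and without KP 5 it was 0.0300, with log2 fold changes from −1.81 to −1.41.

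Mmp9 encodes gelatinase B, which neutrophils, macrophages and osteoclasts store or secrete. It lies on chromosome 2 from 164940326 to 164955850 (Entrez Gene 17395). KP 5 to KP 8 held 91.5, 75.3, 234 and 89.2 CPM, and KPH2 2 to KPH2 4 held 45.5, 73.7 and 107 CPM. KPH2 1 held 236 CPM, the highest level of the 8 tumours. The groups overlapped, and the log2 fold change was −0.70 (standard error 0.455, 95% interval −1.75 to 0.35, edgeR adjusted p = 0.478). With KPH2 1 it was −0.08 (standard error 0.540, edgeR adjusted p = 0.964). The 2 tumours with the highest Mmp9, KPH2 1 and KP 7, were also the 2 with the highest summed osteoclast markers, at 414 and 519 CPM against 113 to 239 CPM in the other 6. Acp5, which encodes the tartrate-resistant acid phosphatase of osteoclasts and some macrophages, was at 124 CPM in KPH2 1 and 70.3 CPM in KP 7, and at 17.2 to 56.5 CPM elsewhere. Ctsk, the collagen-cutting protease cathepsin K, was at 208 CPM in KPH2 1 and 353 CPM in KP 7, and at 26.4 to 140.01 CPM elsewhere. Acp5 and Ctsk hold most of the osteoclast sum in KPH2 1 and KP 7, so they are not observations separate from it. Neutrophil markers did not share that order, with 17.1 CPM in KPH2 1 and 30.6 CPM in KP 7 within a range of 13.1 to 64.1 CPM, and neither did macrophage markers, with 2391 CPM in KPH2 1 and 4329 CPM in KP 7 within 1879 to 4623 CPM. Their part in the Mmp9 level was not tested.

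Mmp3 encodes stromelysin-1, which cuts many matrix proteins and activates other pro-MMPs. It showed the largest difference of the 10 genes. The gene lies on chromosome 9 from 7445822 to 7455975 (Entrez Gene 17392). KP 5 to KP 8 held 133, 123, 735 and 72.8 CPM, and KPH2 2 to KPH2 4 held 9.53, 19.1 and 24.2 CPM. KPH2 1 held 17.6 CPM, among the other KPH2 tumours. All 4 KPH2 tumours lay below all 4 KP tumours, although levels within KP spanned 10.1-fold. The mean of KP was 266 ± 314 CPM (SD, n = 4), against 17.6 ± 7.44 CPM (SD, n = 3), 15.1-fold lower, for KPH2. In the fit this was a log2 fold change of −3.92 (standard error 0.917, 95% interval −6.03 to −1.81, edgeR adjusted p = 0.0745), which missed the threshold. Over 8 tumours it was −3.92 (standard error 0.776, edgeR adjusted p = 0.109). KP 7 set much of the size and of its error. Without KP 7 the log2 fold change was −2.64 and the adjusted p from edgeR was 0.0495, past the threshold. DESeq2 gave an adjusted p of 0.000787 over 7 tumours. A 2-sided exact permutation test on log2 CPM gave p = 0.029 over 8 tumours, the smallest value it allows, and p = 0.057 over 7, again the smallest.

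Mmp3 and Mmp13 belong to a cluster of 10 metalloproteinase genes on chromosome 9 that spans 427072 bases, from 7272514 to 7699585, in the order Mmp13, Mmp12, Mmp1b, Mmp3, Mmp1a, Mmp10, Mmp8, Mmp27, Mmp20 and Mmp7. AP-1, the dimer of FOS and JUN proteins, is a known activator of several of these genes, and its site reads TGAGTCA on one strand and TGACTCA on the other. The table of RefSeq promoters (GRCm38.p6), which holds 250 bases before and 50 after each start, was searched for that site on both strands. It was found in 7 of the 10 cluster genes, in 0 of 8 other MMP genes and in 0 of 4 TIMP genes with an entry, and in 5.2% of all 32851 promoters. A gene was counted if any of its promoters matched, whereas the 5.2% counts promoters. Mmp7 and Mmp12 each had an entry with the site and another without it. Mmp2, Mmp9, Mmp16, Mmp17 and Mmp19 had no entry and were not searched. The 120 bases before the start are shown for Mmp3 and Mmp13, the cluster genes among the 10, and for the cluster genes Mmp10, Mmp1a and Mmp1b, with the AP-1 site in capitals and each sequence 5′ to 3′ on the strand of its gene.
Mmp13 (chr9:7272394-7272513, plus strand): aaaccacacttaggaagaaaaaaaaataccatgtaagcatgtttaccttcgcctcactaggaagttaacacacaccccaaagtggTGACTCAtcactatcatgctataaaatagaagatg
Mmp1b (chr9:7388027-7388146, minus strand): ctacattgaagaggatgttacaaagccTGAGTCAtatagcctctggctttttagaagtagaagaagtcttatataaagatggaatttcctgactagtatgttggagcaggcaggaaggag
Mmp3 (chr9:7445702-7445821, plus strand): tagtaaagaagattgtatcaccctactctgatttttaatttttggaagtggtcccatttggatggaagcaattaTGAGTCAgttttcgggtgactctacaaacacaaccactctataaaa
Mmp1a (chr9:7464021-7464140, plus strand): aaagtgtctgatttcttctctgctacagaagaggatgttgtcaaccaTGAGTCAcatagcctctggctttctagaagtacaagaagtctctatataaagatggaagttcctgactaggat
Mmp10 (chr9:7502222-7502341, plus strand): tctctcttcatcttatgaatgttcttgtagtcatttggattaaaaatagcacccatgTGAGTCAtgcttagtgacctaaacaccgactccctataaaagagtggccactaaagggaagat
The site began 46 bases before the annotated start in Mmp3, 35 in Mmp13, 63 in Mmp10, 73 in Mmp1a and 93 in Mmp1b. In Mmp12 and Mmp7, whose sequences are not shown, it began 44 and 63 bases before the start. It reads TGAGTCA on the strand of the gene except in Mmp13, where it reads TGACTCA. The starts are those of the annotation and were not checked here, so the distances are approximate. A match of letters is a description and does not show a bound site. The core of the hypoxia response element, ACGTG or GCGTG, was found in 4 of the 7 genes with an entry among the 10 (Mmp14, Timp1, Timp2 and Timp3), and in 43.8% of all promoters. Mmp3, Mmp11 and Mmp13 had no match in this window.

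Mmp10, which encodes stromelysin-2 and lies close to Mmp3, had levels of 7.04, 2.54, 13.9 and 2.94 CPM for KP 5 to KP 8. KPH2 2 to KPH2 4 held 1.8, 0.799 and 0.90 CPM, and KPH2 1 held 1.04 CPM. All KPH2 tumours were below all KP tumours, as for Mmp3, and KP 7 was again the highest. A log2 fold change of −2.47 missed the threshold (edgeR adjusted p = 0.117). Mmp1b, a collagenase gene, had 7, 5, 8 and 13 counts in KP 5 to KP 8 and 1, 0 and 1 counts in KPH2 2 to KPH2 4, with 3 counts in KPH2 1. Mmp1a, its near copy, had 7, 2, 7 and 8 counts against 2, 0 and 0, with 5 in KPH2 1. Neither passed the low-count filter, so no test was made, and only uniquely aligned reads were counted, so their levels are uncertain. Mmp12, the macrophage elastase gene, overlapped between the groups, at 0.667 to 30.8 CPM in KP and 2.0 to 21.0 CPM in KPH2 2 to KPH2 4. Mmp7 had 1 count in all 8 tumours and Mmp20 had 0.

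**Figure D2:**
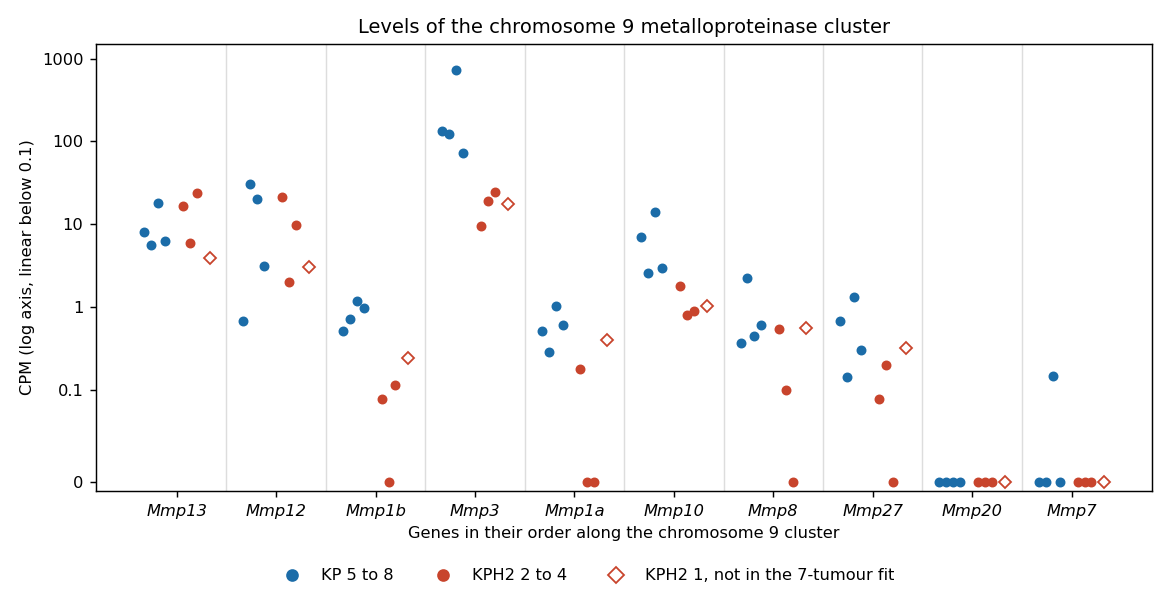
Level in CPM of the 10 cluster genes in their order along chromosome 9, on a log axis that is linear below 0.1, with KP 5 to KP 8 as blue points, KPH2 2 to KPH2 4 as red points and KPH2 1 as an open diamond. Mmp3, Mmp10 and Mmp1b are below KP in every KPH2 tumour, while Mmp13 and Mmp12 overlap.

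Mmp13 encodes collagenase-3, which cuts fibrillar collagen and is made by hypertrophic chondrocytes and osteoblasts. It holds the AP-1 site shown above and was the only one of the 10 genes with a log2 fold change above 0 over 7 tumours. It lies on chromosome 9 from 7272514 to 7283333 (Entrez Gene 17386). KP 5 to KP 8 held 8.0, 5.65, 18.2 and 6.25 CPM, KPH2 2 to KPH2 4 held 16.4, 5.99 and 23.7 CPM, and KPH2 1 held 3.91 CPM, the lowest level. The log2 fold change of 0.70 (standard error 0.542, 95% interval −0.55 to 1.95, edgeR adjusted p = 0.557) became 0.40 over 8 tumours (edgeR adjusted p = 0.805).

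Mmp11 encodes stromelysin-3, which is activated inside the cell by furin and is known from the stroma of carcinomas. It lies on chromosome 10 from 75923221 to 75932502 (Entrez Gene 17385) and shares 155 exon bases with Chchd10 on the other strand. KP 5 to KP 8 held 13.04, 9.04, 14.5 and 23.1 CPM, and KPH2 2 to KPH2 4 held 9.53, 8.19 and 5.40 CPM, with KPH2 1 at 5.03 CPM. KP 6 lay below KPH2 2, so the groups overlapped by that pair alone. The log2 fold change of −0.96 (standard error 0.348, 95% interval −1.75 to −0.16) had an adjusted p of 0.201 from edgeR, and −1.09 over 8 tumours had 0.213.

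Mmp19 encodes a secreted enzyme that cuts proteins of basement membranes. It lies on chromosome 10 from 128790910 to 128800827 (Entrez Gene 58223). It varied least among KP tumours of the 7 MMPs, at 61.6, 56.8, 68.8 and 51.5 CPM. KPH2 2 to KPH2 4 held 27.7, 36.4 and 34.3 CPM, and KPH2 1 held 31.7 CPM. Each KPH2 tumour was below each KP tumour, and the mean of 59.7 ± 7.36 CPM (SD, n = 4) for KP compared with 32.8 ± 4.54 CPM (SD, n = 3), 1.82-fold lower, for KPH2. A log2 fold change of −0.87 (standard error 0.169, 95% interval −1.25 to −0.48, edgeR adjusted p = 0.0446) was past the threshold. Adding KPH2 1 left its size at −0.88 (standard error 0.148) while the adjusted p rose to 0.10, the unadjusted p being 0.000206 against 0.000746. Leaving out each of KP 5, KP 6, KP 7, KP 8, KPH2 2, KPH2 3 and KPH2 4 gave edgeR adjusted p-values of 0.0625, 0.0859, 0.0908, 0.063, 0.15, 0.09 and 0.114, with log2 fold changes from −0.95 to −0.76. The gene shares 789 exon bases with Tmem198b and 212 with Gm47093, both on the other strand, and the strand setting of the counting was not given in the sources used here. Tmem198b itself had a log2 fold change of 0.11 (edgeR adjusted p = 0.841).

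Mmp14 encodes membrane type 1 MMP, a collagenase held at the cell surface that activates pro-MMP-2. It lies on chromosome 14 from 54431598 to 54442456 (Entrez Gene 17387). Its levels were 307, 307, 630.5 and 371 CPM in KP 5 to KP 8, 285, 384 and 222 CPM in KPH2 2 to KPH2 4, and 235 CPM in KPH2 1. The groups overlapped, KP 7 was again the highest, and the log2 fold change was −0.44 (standard error 0.303, 95% interval −1.14 to 0.25, edgeR adjusted p = 0.498). KP 7 held the highest level among KP tumours of Mmp3, Mmp9, Mmp13, Mmp14 and Mmp19, and its Mmp2 was next to that of KP 6.

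**Figure D3:**
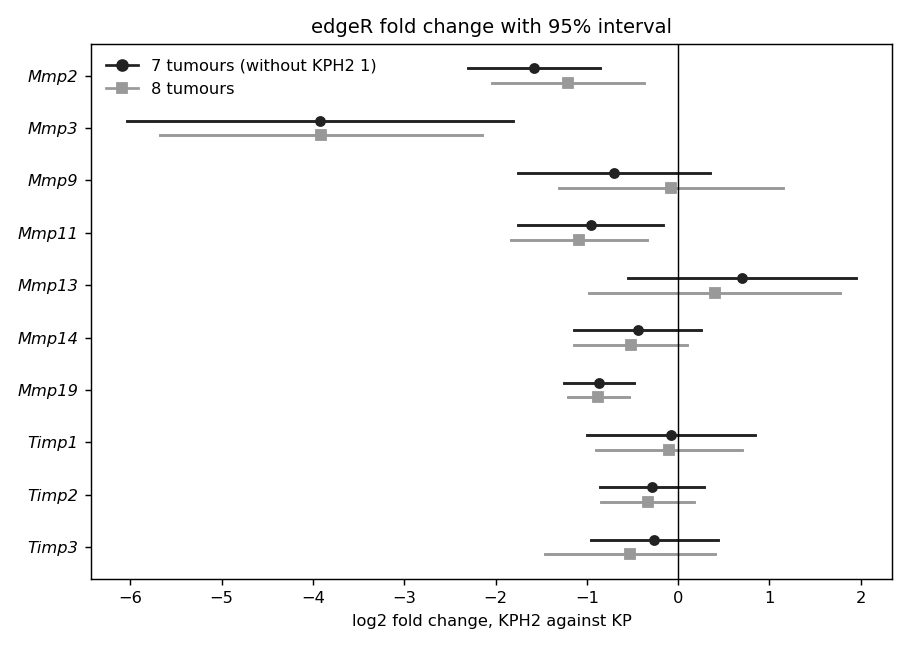
Log2 fold change of KPH2 against KP tumours for each of the 10 genes, from edgeR, with 95% intervals as horizontal lines. Black circles are the fit of 7 tumours and grey squares that of 8. The intervals of Mmp2, Mmp3, Mmp11 and Mmp19 lie below 0 in both fits, and those of the other 6 genes include 0. The intervals are not adjusted for the number of genes.

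By edgeR 0 of the 3 inhibitors passed the threshold or an unadjusted p of 0.05 in either fit, DESeq2 called 0 of them, and no inhibitor separated the groups. Timp1, an inhibitor of secreted MMPs that is induced by cytokines, lies on chromosome X from 20870166 to 20874737 (Entrez Gene 21857), inside Syn1 on the other strand with 0 shared exon bases. KP 5 held 80.7 CPM, and KP 6, 7 and 8 held 229, 233 and 248 CPM. KPH2 2 to KPH2 4 held 269.7, 143 and 151 CPM, and KPH2 1 held 175 CPM. Timp1 had a log2 fold change of −0.07 (standard error 0.399, 95% interval −0.99 to 0.85, edgeR adjusted p = 0.949).

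Timp2, the inhibitor that also links pro-MMP-2 to MMP-14, lies on chromosome 11 from 118301061 to 118355411 (Entrez Gene 21858). It had the highest CPM of the 10 genes in 6 of the 8 tumours, and Mmp2 had it in KP 6 and KP 7. In KP 5 to KP 8 its level was 1172, 543, 719 and 767 CPM, while KPH2 2 to KPH2 4 held 615, 683 and 673 CPM and KPH2 1 held 568 CPM. KPH2 tumours lay inside the KP range, and the log2 fold change was −0.29 (standard error 0.251, 95% interval −0.86 to 0.29, edgeR adjusted p = 0.606).

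Timp3, which binds to the matrix and also inhibits ADAM proteases, lies on chromosome 10 from 86300412 to 86349505 (Entrez Gene 21859) and shares 1733 exon bases with Syn3 on the other strand. KP 5 to KP 8 held 327, 315, 245 and 344 CPM. KPH2 2 to KPH2 4 were spread more widely, at 397, 154 and 219 CPM, and KPH2 1 was lowest at 81.4 CPM. Its log2 fold change was −0.26 (standard error 0.303, 95% interval −0.95 to 0.43, edgeR adjusted p = 0.707), and −0.53 over 8 tumours (standard error 0.410, edgeR adjusted p = 0.588).

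Of 23 MMP genes in the table, 15 passed the filter. Of these, 11 had log2 fold changes below 0 and 4 above, with a median of −0.70, where 7724 of all 14867 genes were below 0. The 2 called genes were Mmp2 and Mmp19, where 1.96% of all genes were called. At an unadjusted p under 0.05, 7 were lower and 3 higher, where 9.26% of all genes were lower and 8.5% higher. Over 8 tumours 5 were lower and 1, Mmp16, was higher. Beside Mmp2, Mmp3, Mmp10, Mmp11 and Mmp19, the lower ones were the membrane-anchored Mmp17 (−1.02, edgeR adjusted p = 0.275) and Mmp23 (−1.05, edgeR adjusted p = 0.236). Mmp16, which encodes a membrane-type enzyme, had the highest log2 fold change of the other 3, at 1.10 (edgeR adjusted p = 0.245), with 40.6, 20.3, 18.8 and 10.2 CPM in KP, 46.5, 66.6 and 32.3 CPM in KPH2 2 to KPH2 4 and 79.2 CPM in KPH2 1. The membrane-type gene Mmp15 and the gene of epilysin, Mmp28, gave 0.73 and 0.86 on the log2 scale (edgeR adjusted p = 0.245 and 0.280), and KPH2 1 lay below every KP tumour for both, at 6.23 and 2.55 CPM. Timp4 had 0.592 CPM or less in each tumour and was not tested.

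To compare genes, CPM was divided by the length of the exons in kilobases. In KP tumours the mean level per kilobase ran from Timp1 (223) and Timp2 (205) through Mmp2 (174), Mmp3 (148), Mmp14 (67.8), Timp3 (37.8), Mmp9 (34.6) and Mmp19 (16.9) to Mmp11 (5.37) and Mmp13 (3.56). Neighbours in this order overlapped over the 4 tumours, except that Mmp14 was above Timp3, Mmp9 above Mmp19 and Mmp19 above Mmp11 without overlap. In KPH2 2 to KPH2 4 the order began with Timp1 (212), Timp2 (169), Mmp2 (58.2) and Mmp14 (49.8), and Mmp3 stood at 9.77 per kilobase, in rank 7 in place of rank 4. There only Timp2 and Mmp2 were neighbours that did not overlap.

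The summed level per kilobase of the 7 MMPs was 281, 385, 834 and 297 in KP 5 to KP 8, 138, 187 and 146 in KPH2 2 to KPH2 4, and 254 in KPH2 1. That of the 3 TIMPs was 432, 436, 478 and 518 in KP, 510.2, 355 and 370.3 in KPH2 2 to KPH2 4, and 353 in KPH2 1. The MMP sum did not overlap between the groups and the TIMP sum did. Mmp3 made up 26.3%, 17.7%, 48.9% and 13.6% of the MMP sum in KP 5 to KP 8 and 3.83%, 5.67% and 9.21% in KPH2 2 to KPH2 4, with 3.85% in KPH2 1. Mmp14 made up 12.7% to 20.9% in KP and 25.5% to 34.7% in KPH2 2 to KPH2 4, but 15.5% in KPH2 1. Mmp9 made up 5.52% to 9.20% in KP, 9.31% to 20.7% in KPH2 2 to KPH2 4 and 26.2% in KPH2 1. Shares of a sum move together, so a lower share of Mmp3 raises the others. These are descriptions with no test.

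**Figure D4:**
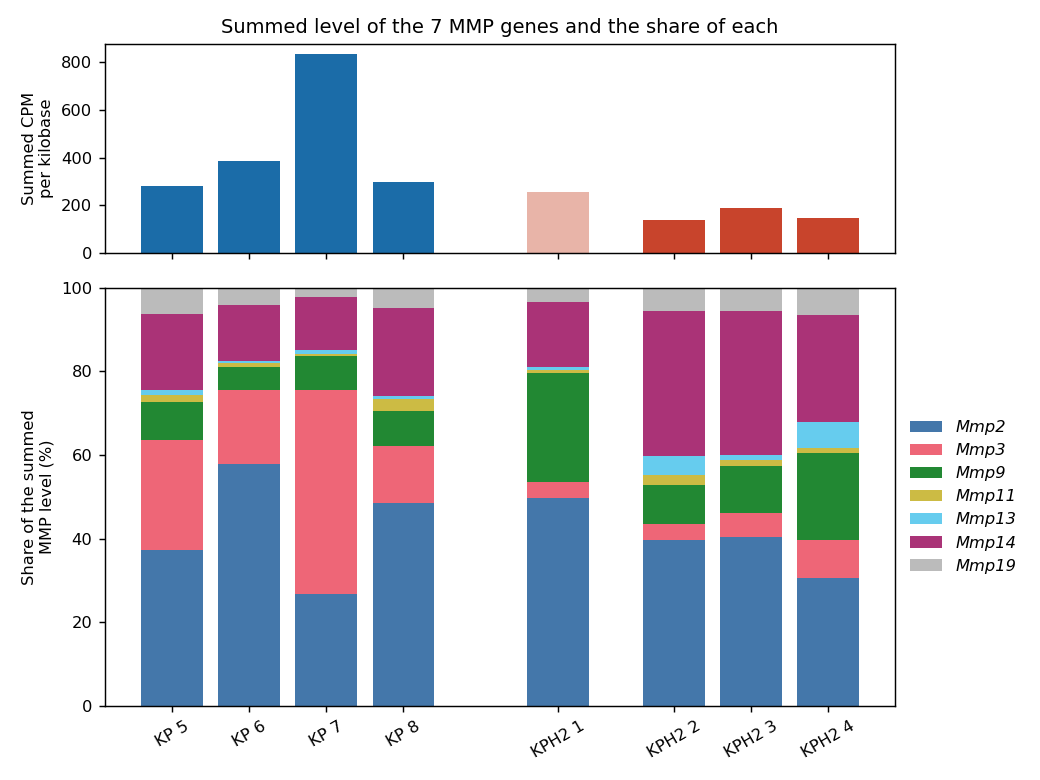
Upper bars give the summed level of the 7 MMP genes in CPM per kilobase of exon for each tumour, and lower stacked bars the percent of that sum from each gene, with KPH2 1 set apart in a paler bar. Mmp3 held 13.6% to 48.9% of the sum in KP tumours and 3.83% to 9.21% in KPH2 tumours.

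Ratios of an enzyme to an inhibitor within a tumour do not depend on the scaling of libraries. The log2 ratio of Mmp3 to Timp1, per kilobase, was −0.30, −1.92, 0.63 and −2.79 in KP 5 to KP 8, −5.84, −3.92 and −3.67 in KPH2 2 to KPH2 4, and −4.33 in KPH2 1. The mean differed by −3.38, without overlap. The log2 ratio of Mmp2 to Timp2 was −1.52, 0.68, 0.27 and −0.45 in KP and −1.53, −1.21 and −1.96 in KPH2 2 to KPH2 4, with −0.21 in KPH2 1, and KP 5 lay among the KPH2 tumours. For Mmp14 to Timp2, Mmp9 to Timp1 and Mmp13 to Timp1 the groups overlapped, with mean differences of −0.18, −0.62 and 0.66.

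Other genes of the system were read from lists, and of the calls named from them below only that of Dmp1 held over 8 tumours. Among all 14867 genes tested over 7 tumours, 1.96% were called and 0.72% were called lower, and 7724 had log2 fold changes below 0. Of 14 tested activators and cofactors of MMPs, 10 had log2 fold changes above 0 and 4 below (median 0.12). The 1 called was Itgb3, the integrin β3 chain that pairs with αv and can hold MMP-2 at the cell surface. It was lower, at 79.8 to 134 CPM in KP and 32.1 to 55.9 CPM in KPH2 2 to KPH2 4 (log2 fold change −1.37, edgeR adjusted p = 0.0377), and KPH2 1 held 81.5 CPM, inside the KP range as for Mmp2. Over 8 tumours its log2 fold change was −1.07 (edgeR adjusted p = 0.184). Among 8 other inhibitors and clearance receptors, Serpinb2, the plasminogen activator inhibitor PAI-2, was called higher at 18.3, 7.79 and 42.4 CPM against 0.678 to 2.12 CPM in KP (log2 fold change 4.14, edgeR adjusted p = 0.0236). KPH2 1 had 0.239 CPM of Serpinb2, below every KP tumour, and over 8 tumours the adjusted p from edgeR was 0.213. Of 10 ADAM proteases, which shed membrane proteins, 9 had log2 fold changes below 0 and 1 was called, Adam9, at 312 to 370.4 CPM in KP and 187 to 229 CPM in KPH2 2 to KPH2 4 (−0.70, edgeR adjusted p = 0.0490), with 279 CPM in KPH2 1 and an edgeR adjusted p of 0.160 over 8 tumours.

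None of 15 tested ADAMTS proteases was called by edgeR, and 1 was higher and 1 lower at an unadjusted p under 0.05, where 8.5% and 9.26% of all genes were. These were Adamts17 (log2 fold change 3.12) and Adamts8 (−1.41), and the level of Adamts17 was high only in KPH2 3, at 37.4 CPM against 4.85 CPM in KPH2 2, 2.36 CPM in KPH2 4 and 1.13 to 2.67 CPM in KP. None of 15 matrix substrates of these enzymes was called, with a median log2 fold change of −0.16 and 3 at an unadjusted p under 0.05, all below 0. Dcn, the small proteoglycan decorin, was among them, at 358 to 1860.1 CPM in KP and 231 to 319 CPM in KPH2 2 to KPH2 4, with 393 CPM in KPH2 1 (−1.89, edgeR adjusted p = 0.122). Another list held 18 transcription factors, cytokines and receptors of the AP-1, ETS and inflammatory pathways that induce MMPs. Of these, 8 had log2 fold changes above 0 and 10 below (median −0.12), with 3 at an unadjusted p under 0.05 in each direction. The 2 called genes were receptors, both lower, where 0.72% of all genes were called lower. Il1r1, the interleukin-1 receptor, had a log2 fold change of −1.10 (edgeR adjusted p = 0.0232), at 90.0 to 125 CPM in KP and 43.5 to 54.6 CPM in KPH2 2 to KPH2 4, and 111 CPM in KPH2 1. Osmr, the oncostatin M receptor, had −1.33 (edgeR adjusted p = 0.0499), at 96.4 to 223 CPM against 56.3 to 70.4 CPM, and 134 CPM in KPH2 1. Both genes in KPH2 1 lay within the KP range, and with that tumour included the edgeR adjusted p was 0.322 for Il1r1 and 0.250 for Osmr.

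Markers of cell types were read in the same way, against 9.26% of all genes lower and 8.5% higher at an unadjusted p under 0.05. Of all 14867 genes tested, 7724 had log2 fold changes below 0 and 1.96% were called. The summed level of 10 fibroblast markers was 4843 to 8397 CPM in KP, 1609.9 to 3924 CPM in KPH2 2 to KPH2 4 and 3209.9 CPM in KPH2 1, without overlap, and 8 of 9 tested markers had log2 fold changes below 0 (median −1.55), 7 of them at an unadjusted p under 0.05. Pdgfra, a receptor that marks fibroblasts and many sarcoma cells, was called lower (−2.02, edgeR adjusted p = 0.0183, and 0.160 over 8 tumours), and Tcf21 was at 0 in every tumour. Skeletal muscle markers summed to 1987 to 3588 CPM in KP, 4363 to 19715 CPM in KPH2 2 to KPH2 4 and 1595 CPM in KPH2 1. All 25 had log2 fold changes above 0 (median 2.12), 23 of them at an unadjusted p under 0.05, and Neb was called (2.23, edgeR adjusted p = 0.0430, and 0.243 over 8 tumours). Macrophage markers summed to 2546 to 4623 CPM in KP, 1879 to 2807 CPM in KPH2 2 to KPH2 4 and 2391 CPM in KPH2 1, and overlapped. All 13 had log2 fold changes below 0 (median −0.57), and edgeR called 0 of them, with 5 at an unadjusted p under 0.05. With the muscle marker score as a covariate edgeR called 0 of the 10 genes and 3 genes in all. In that fit Mmp2, Mmp11 and Mmp19 were lower and Mmp13 higher at an unadjusted p under 0.05. The log2 fold changes were −1.59 for Mmp2 (edgeR adjusted p = 0.613), −0.77 for Mmp19 (0.60) and −2.11 for Mmp3 (0.873). Their standard errors were 0.655, 0.307 and 1.58, against 0.317, 0.169 and 0.917 without the covariate. Muscle marker sums did not overlap between KP and KPH2 2 to KPH2 4, so this fit can hardly tell muscle content from group. In KPH2 1 muscle markers were lower than in every KP tumour, its Mmp2 was within the KP range, and its Mmp3 and Mmp19 were among the other KPH2 tumours. The paper describes myofibroblastic differentiation in tumours of this model, so sarcoma cells may add to the fibroblast sum and it need not count stromal fibroblasts alone. The part of fibroblast and macrophage content in the levels of Mmp2, Mmp3 and Mmp19 was not tested.

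**Figure D5:**
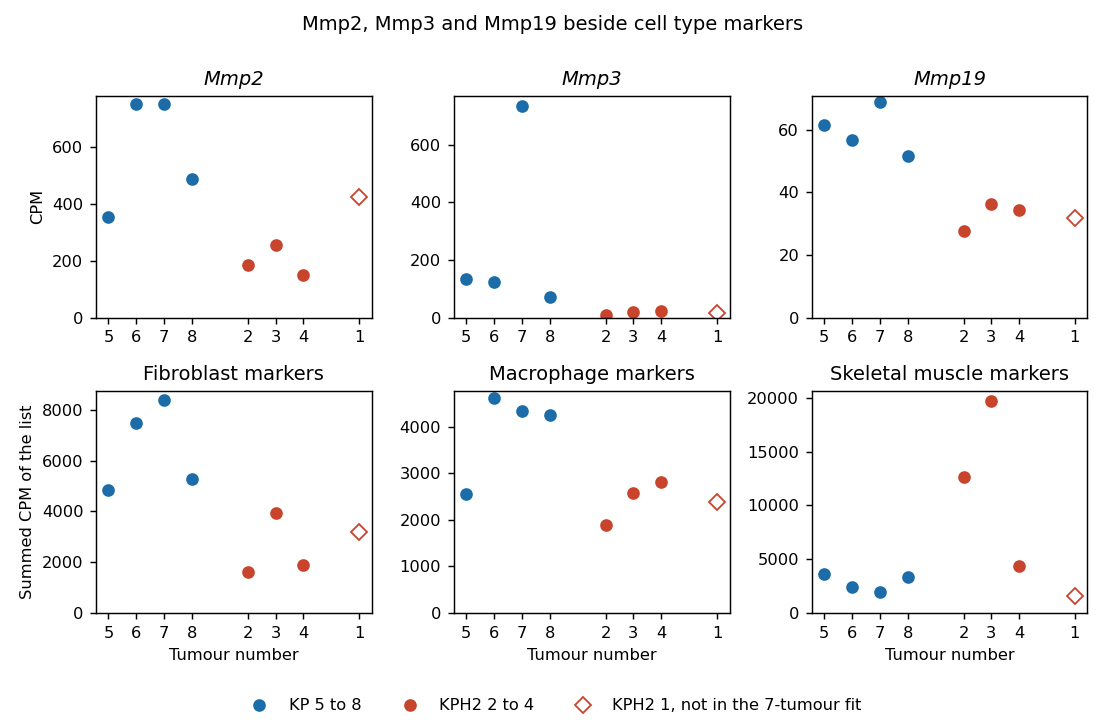
Levels of Mmp2, Mmp3 and Mmp19 in CPM (upper panels) and summed CPM of the fibroblast, macrophage and skeletal muscle marker lists (lower panels) by tumour, on linear axes from 0, with KPH2 1 as an open diamond at the right. Fibroblast markers are below KP in all KPH2 tumours, and muscle markers are high in KPH2 2 to KPH2 4 but not in KPH2 1.

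For the next lists too, the share of all genes at an unadjusted p under 0.05 was 9.26% lower and 8.5% higher. As above, 7724 of all 14867 genes had log2 fold changes below 0 and 1.96% were called. Of 10 endothelial markers 9 had log2 fold changes below 0 (median −0.59), with summed levels of 379.8 to 659.7 CPM in KP, 359 to 363 CPM in KPH2 2 to KPH2 4 and 276 CPM in KPH2 1, and edgeR called 0, with 5 at an unadjusted p under 0.05. Of 10 pericyte and smooth muscle markers 8 were below 0 and 2 above (median −0.44), with 2 at an unadjusted p under 0.05 in each direction, and the summed levels overlapped, at 531 to 902 CPM in KP, 461 to 1171 CPM in KPH2 2 to KPH2 4 and 241 CPM in KPH2 1. Among them Cnn1, calponin, was called lower (−3.69, edgeR adjusted p = 0.0491, and 0.102 over 8 tumours). Of 8 osteoblast and chondrocyte markers 5 were above 0 and 3 below (median 0.54), 4 of them higher at an unadjusted p under 0.05, and the summed levels were 132 to 187 CPM in KP, 187 to 288 CPM in KPH2 2 to KPH2 4 and 171 CPM in KPH2 1. Among them Dmp1, a bone matrix protein, was called higher (4.57, edgeR adjusted p = 0.00514, and 0.0388 over 8 tumours). It was at 0.519 to 1.55 CPM in KP and 11.0 to 26.2 CPM in the 4 KPH2 tumours. Mmp13, which the same cells are known to make, overlapped between the groups. None of 4 neutrophil, 6 osteoclast and 9 T and NK cell markers was called by edgeR, with 1, 1 and 0 at an unadjusted p under 0.05.

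The genes whose log2 CPM followed the 2 called genes most closely over the 8 tumours were LOC100859962 (Pearson r = 0.977), Gm10258 (0.971) and Wars2 (0.967) for Mmp2, and Mrvi1 (0.977), Egflam (0.974) and Fkbp15 (0.973) for Mmp19. These correlations come from 8 tumours that share libraries and 2 groups, among 14805 genes. LOC100859962 and Gm10258 stayed under 3 CPM in each tumour, while Wars2, the mitochondrial tryptophanyl-tRNA synthetase, was at 23.5 to 33.6 CPM in KP, 13.6 to 16.5 CPM in KPH2 2 to KPH2 4 and 24.3 CPM in KPH2 1. Mrvi1 was at 10.7 to 21.8 CPM in KP and 3.11 to 6.09 CPM in the 4 KPH2 tumours.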

How the data were processed

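RNA was extracted from paraffin sections of 8 UPS tumours, and libraries were made with a stranded kit after ribosomal RNA depletion. According to the submitters' notes and the study's methods, the authors used CASAVA 1.8.2, mapped reads to GRCm38 (STAR 2.4) and counted those with a unique alignment for each gene of RefSeq (HTSeq 0.6.1). They deposited raw counts for 8 tumours. The authors also deposited log2 values from the regularized log transformation of DESeq2 1.6 over 7 and 8 tumours, used here only as an alternative input.

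The counts were fitted by edgeR 4.0.16 (R 4.3.3), with TMM scaling, a low-count filter (minimum count 10, minimum total 15), robust estimates and the quasi-likelihood test, over KP 5 to KP 8 and KPH2 2 to KPH2 4, with Benjamini-Hochberg adjustment over 14867 genes and a threshold of 0.05. The fit over 8 tumours tested 14805 genes. CPM was computed on TMM sizes of all 8 tumours, with a prior count of 2 for log2 values. The labels do not say whether tumours of a group came from separate litters, and p-values measure the spread between these tumours. Any 2 libraries differed by more than counting noise (closest pair KP 6 and KP 8, chi-square of 28.3 per degree of freedom). Exact permutation tests were 2-sided. Alternatives used limma 3.58.1 and DESeq2 1.42.0. Tests were tried on simulated data.

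The 10 genes and the lists were chosen with earlier results of these data known. All 10 genes are named. From lists, genes past the threshold are named, and otherwise genes among the 2 with the smallest p in each direction. The 3 genes with the highest Pearson r are named for each called gene. Mmp10, Mmp1a, Mmp1b, Mmp12, Mmp15, Mmp16, Mmp17, Mmp23 and Mmp28 were named after their values were seen. Exon lengths and overlaps came from GENCODE M21 (GRCm38), and promoters from RefSeq (GRCm38.p6), which matched 7 of the 10 genes. A further allele shared by both groups is not reported here.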

Additional observations from a re-analysis of the deposited data

Results flagged for a closer look

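In groups of 4 tumours, 1 tumour stood apart from the other 3 in 3 of 20 groups examined (10 genes in KP and in KPH2, KPH2 1 included), by the ratio of its gap to the range of the group. The limit used is one that chance passes in about 1 of 20 groups of normally distributed values, and 2 of the 3 values came from the same tumour, KP 7. Mmp3 in KP 7 was 735 CPM, with a gap of 0.909 of the range. Mmp9 in KP 7 was 234 CPM, with a gap of 0.897 of the range. Timp1 in KP 5 was 80.7 CPM, below the other KP tumours, with a gap of 0.888 of the range. KP 7 also held the highest summed osteoclast and fibroblast markers of the KP tumours, at 519 and 8397 CPM, and their part in its Mmp3 and Mmp9 levels was not tested.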

How the results depend on the processing

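The main comparison called 2 of the 10 genes. All 8 tumours and the muscle marker score as a covariate each gave 0, a mean count of at least 50 gave 1, and leaving out each tumour in turn gave 0 to 1. Over all genes the main count was 292, with 1, 3 and 215 under the first 3 of these and 55 (without KPH2 2) to 349 (without KP 5) when a tumour was left out. DESeq2 gave 3 over 7 tumours and 3 over 8, the second added after seeing the data, and the settings for scaling, filter off, robust estimates off and the authors' log2 values gave 2 each. Leaving out a tumour leaves fewer samples. The cause of the other changes was not tested. Over 17 alternatives the log2 fold change ran from −1.81 to −0.997 for Mmp2 (adjusted p under 0.05 in 8), from −4.23 to −2.10 for Mmp3 (3) and from −0.95 to −0.54 for Mmp19 (8). The sign turned with the muscle covariate for Mmp9 (0.225) and Timp1 (0.10), and when tumours were left out in turn for Timp1 (−0.426 to 0.091) and Timp3 (−0.72 to 0.003). The sign of Mmp2, Mmp3, Mmp11, Mmp13, Mmp14, Mmp19 and Timp2 did not turn in these alternatives. With 7 tumours, single genes cannot go below p = 0.057 in a 2-sided exact permutation test. No paired analysis was made because the labels link no KP tumour to a KPH2 tumour.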
